A study of Homo sapiens with 5 samples.

Results

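Mucin-type O-glycosylation starts in the Golgi when a polypeptide GalNAc transferase (GALNT) moves N-acetylgalactosamine from UDP-GalNAc onto a serine or threonine of a protein. C1GALT1 then adds galactose to that sugar and so makes the core 1 structure (the T antigen), on which longer chains can be built, while other enzymes can extend or cap the first sugar in other ways. Mucins such as MUC1 and MUC2, which coat and protect the colon epithelium, carry dense clusters of these chains, and truncated chains are a known feature of colorectal carcinomas. The genes described here were 9 GALNT genes (GALNT1, GALNT2, GALNT3, GALNT4, GALNT6, GALNT7, GALNT10, GALNT11 and GALNT12) and C1GALT1, taken by their symbols from the count table, 10 of 25343 genes in all.

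The libraries came from SW620, a human colon carcinoma cell line, and in both groups the cells carried a MUC1 short hairpin RNA (shRNA) under a tetracycline-inducible promoter. There were 3 libraries named neg, numbered 1, 2 and 3, and 2 named pos, numbered 1 and 3. The labels mention vehicle and doxycycline, the drug that switches on such an shRNA, without saying which name stands for which, so neg and pos are kept here. Cells were grown in triplicate, whether from 1 clone is not said, and nothing ties a library to its own culture, so p-values measure only the spread between these libraries.

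Total counts were 10888704 to 14137678 per library. MUC1, the shRNA's target, had 176, 252 and 218 reads in the neg libraries and 27 and 13 in pos replicates 1 and 3. It was 8.42-fold lower in pos (-3.07 on the log2 scale, SE 0.34, adjusted p = 0.0270 in edgeR's quasi-likelihood test), a call that ended when any 1 neg library was left out (adjusted p 0.178, 0.217 and 0.212). Of 12 colon epithelial markers 3 stayed under 1 CPM (TMM-normalised read counts scaled to a common library total) in every library, and the summed level of the list was 6069 to 7894 CPM in neg and 7910 to 16432 CPM in pos. Single markers moved both ways. Of the 9 tested, edgeR called 1 higher and 1 lower, beside 5.06% and 4.13% of all tested genes. Their log2 fold changes ran from -3.05 to 2.18. The leukocyte genes PTPRC and CD3E and the fibroblast genes COL1A2 and COL3A1 had 0 reads in every library. The summed leukocyte list was 44.5 to 54.3 CPM in neg and 36.0 to 48.5 CPM in pos, nearly all of it CD68. The fibroblast list was 25.2 to 29.1 CPM in neg and 13.5 to 18.7 CPM in pos, with COL1A1 called lower (adjusted p = 0.0340 in edgeR), and the endothelial list was 2.73 to 4.02 CPM in neg and 0.890 to 1.48 CPM in pos. Their part in the results was not tested. The pos libraries differed from each other by more than neg libraries did, with a chi-square per degree of freedom of 153 against 6.07 to 22.6. In pos replicate 3 reads leaned towards short transcripts, a trend in transcript length that is given below gene by gene.

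None of the 9 members with enough reads to be tested was called different between pos and neg (0 of 9 at an edgeR adjusted p under 0.05, against 9.20% of 13604 tested genes). Their adjusted p ran from 0.161 for GALNT3 to 0.946 for GALNT7, and 0 of 9 had an unadjusted p under 0.05, against 34.6% of all tested genes. DESeq2 and limma-voom also called 0 of the 9, with lowest adjusted p of 0.172 and 0.140, where they called 23.2% and 7.93% of all tested genes. The median log2 fold change of the members was -0.12, beside -0.05 over all tested genes, and the median size of the change in either direction was 0.14 beside 0.58. The pos and neg libraries did not overlap for 2 of the 9 (22.2%), GALNT3 and GALNT11, where 56.0% of all tested genes had groups that did not overlap (26.7% with pos above and 29.3% with pos below). With only 2 pos libraries the 95% intervals were wide, and for GALNT1 the interval reached from a fall to 0.342 of the neg level to a rise to 2.08 times it. These tests therefore do not show that the enzymes' mRNA levels were the same in both groups.

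**Figure D1:**
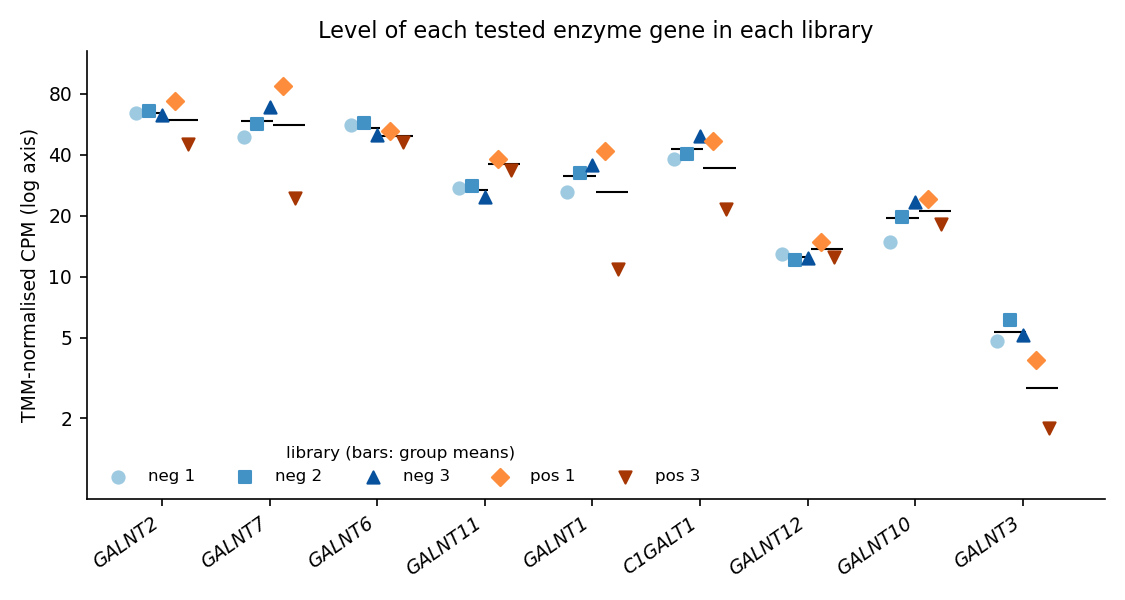
TMM-normalised CPM (log axis) of the 9 tested genes in each of the 5 libraries, ordered by their level per kilobase in neg, with black bars at the group means. The pos replicate 3 points (brown triangles) lie below the pos replicate 1 points (orange diamonds) for all 9 genes, most widely for GALNT1 and GALNT7. Both pos points lie on the same side of every neg point only for GALNT3 and GALNT11. GALNT4, with 0 to 4 reads per library, is not plotted.

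The initiating enzymes had different levels in these cells. Divided by the length of the canonical transcript, the neg level was highest for GALNT2 and GALNT7, at 14.5 ± 0.404 and 13.7 ± 2.36 CPM per kilobase (SD, n = 3), and these ranges overlapped. GALNT6 (10.2 ± 0.742) and GALNT11 (9.77 ± 0.645 CPM per kilobase) came next, also with overlapping ranges, and then GALNT1 (7.89 ± 1.23) and C1GALT1 (6.79 ± 0.939 CPM per kilobase), which overlapped as well. GALNT12 (4.52 ± 0.149), GALNT10 (3.25 ± 0.716) and GALNT3 (1.56 ± 0.193 CPM per kilobase) each lay apart from their neighbours. GALNT4 stood last at 0.0318 ± 0.0177 CPM per kilobase. The order at the top differed between the pos libraries. In pos replicate 1 GALNT7 led with 20.6 CPM per kilobase before GALNT2 with 16.6. In pos replicate 3 GALNT11 led with 12.2, before GALNT2 with 10.2 and GALNT6 with 8.70, while GALNT7 had 5.76 CPM per kilobase. That library's reads leaned towards short transcripts, and GALNT11 has the shortest of the members at 2739 nt. With the length trend removed, GALNT2 had 17.6% and GALNT6 17.1% of the summed level of the 12 tested GALNT genes there. GALNT11 then had 14.7% and no longer led.

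GALNT1 and GALNT2 are broadly expressed transferases that act on bare peptide and so place the first sugars. GALNT1 (chromosome 18, 35581117 to 35711834, plus strand, GRCh38) had 26.0, 32.3 and 35.6 CPM in neg replicates 1, 2 and 3, 41.6 CPM in pos replicate 1 and 11.0 CPM in pos replicate 3. The highest and the lowest of the 5 libraries were thus both pos, with counting intervals (exact Poisson, 95%) of 38.1 to 45.3 and 8.96 to 13.3 CPM that lay far apart. Its log2 fold change was -0.25 (SE 0.53, adjusted p = 0.756), and it was 0.38 without pos replicate 3 and -1.47 without pos replicate 1. GALNT2 (chromosome 1, 230057990 to 230282122, plus strand) had 64.2, 65.9 and 62.4 CPM in the neg libraries, 73.2 CPM in pos replicate 1 and 44.9 CPM in pos replicate 3. Again the pos libraries lay on either side of a narrow neg range, and the log2 fold change was -0.12 (SE 0.25, 95% interval -0.74 to 0.50), turning to 0.19 with the length trend removed.

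GALNT3 and GALNT6 are close relatives. GALNT3 is known for glycosylating the phosphate hormone FGF23, and GALNT6 for its expression in carcinomas. GALNT3 (chromosome 2, 165747588 to 165794659, minus strand) had 69, 97 and 64 reads in neg and 48 and 17 reads in pos, which gave 4.82, 6.10 and 5.14 CPM in neg against 3.88 CPM in pos replicate 1 and 1.79 CPM in pos replicate 3. Both pos libraries were below every neg library, though the counting interval of pos replicate 1 (2.86 to 5.15 CPM) overlapped those of the neg libraries. The log2 fold change of -0.90 was the largest in size among the members, but with an SE of 0.39 it missed the threshold (95% interval -1.85 to 0.057, unadjusted p = 0.0610, adjusted p = 0.161). It kept its sign in all 18 alternative fits, from -1.53 to -0.43, and was called in those without pos replicate 1. GALNT6 (chromosome 12, 51351247 to 51392867, minus strand) was among the steadiest, with 56.0, 57.0 and 49.8 CPM in neg, 52.1 CPM in pos replicate 1 and 46.2 CPM in pos replicate 3. The groups overlapped at a log2 fold change of -0.14 (SE 0.19, adjusted p = 0.605, 95% interval -0.60 to 0.32), and the value was 0.36 with the length trend removed. SLC4A8, which overlaps GALNT6 on the opposite strand, had 64, 58 and 64 reads in neg and 1 and 9 in pos, and whether reads were assigned by strand is not given in the sources used here.

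GALNT7 and GALNT10 are follow-up enzymes that prefer peptides already carrying GalNAc, and so fill in neighbouring sites. GALNT7 (chromosome 4, 173168811 to 173323967, plus strand) had 49.1, 56.6 and 69.0 CPM in neg, 87.5 CPM in pos replicate 1 and 24.5 CPM in pos replicate 3. As for GALNT1, the pos libraries held the highest and the lowest value, a 1.84 log2 difference between libraries of the same group. The group means nearly coincided (58.2 ± 10.0 CPM in neg, SD, n = 3, and 56.0 ± 44.6 CPM in pos, SD, n = 2), and the log2 fold change was -0.055 (SE 0.51, adjusted p = 0.946). Its sign rested on a single library. It was 0.56 when pos replicate 3 was left out, -1.20 when pos replicate 1 was and 0.084 when neg replicate 3 was. GALNT10 (chromosome 5, 154190730 to 154420984, plus strand) had 14.9, 19.8 and 23.4 CPM in neg and 24.1 and 18.1 CPM in pos replicates 1 and 3. The groups overlapped at a log2 fold change of 0.13 (SE 0.27, adjusted p = 0.756), which was -0.22 with library size as the only scaling. It was 0.70 (adjusted p = 0.0737) with the length trend removed, the lowest adjusted p of the members in that fit. GALNT10 overlaps the gene span of MFAP3 on the same strand, which had 359, 498 and 425 reads in neg and 317 and 135 in pos.

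GALNT11 and GALNT12 have the shortest canonical transcripts of the members, at 2739 and 2764 nt. GALNT11 is known for glycosylating NOTCH1, and GALNT12 is strongly expressed in normal colon, with inherited loss-of-function variants studied in colorectal cancer. GALNT11 (chromosome 7, 152025674 to 152122340, plus strand) had 27.4, 28.1 and 24.8 CPM in neg, 38.2 CPM in pos replicate 1 and 33.5 CPM in pos replicate 3. It was the only member with both pos libraries above every neg library (26.8 ± 1.77 CPM in neg against 35.9 ± 3.30 CPM in pos). The log2 fold change of 0.42 (SE 0.19, 95% interval -0.048 to 0.89) missed the threshold at an unadjusted p of 0.0704 and an adjusted p of 0.176, was 0.35 with the length trend removed and was 0.059 with library size as the only scaling. Under that scaling the median over all tested genes moved from -0.05 to -0.41. Without pos replicate 3 GALNT11 was at 0.49 with an adjusted p of 0.0498, which then rests on a lone pos library. GALNT12 (chromosome 9, 98807670 to 98850081, plus strand) had 12.9, 12.1 and 12.4 CPM in neg and 14.8 and 12.5 CPM in pos replicates 1 and 3. The neg spread was small (12.5 ± 0.411 CPM), pos replicate 3 lay inside it and pos replicate 1 above it, and the log2 fold change was 0.13 (SE 0.21, 95% interval -0.37 to 0.64), or -0.23 with library size as the only scaling.

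GALNT4, another follow-up enzyme, was close to undetected. It had 3, 1 and 3 reads in neg and 4 and 0 reads in pos, too few for the test, and 3 reads were equal to 0.189 to 0.316 CPM in these libraries. It consists of a single canonical exon on chromosome 12 (89519412 to 89524796, minus strand) inside the spans of POC1B and of the readthrough gene POC1B-GALNT4. POC1B had 408, 496 and 442 reads in neg and 678 and 168 in pos, and POC1B-GALNT4 had 0 in every library. How reads shared by these genes were counted is not given in the sources used here, so the low count of GALNT4 is uncertain.

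C1GALT1 (chromosome 7, 7156934 to 7248616, plus strand), the enzyme that makes core 1 from the sugar the GALNT enzymes place, had 38.1, 40.4 and 49.3 CPM in neg, 46.8 CPM in pos replicate 1 and 21.6 CPM in pos replicate 3. Only pos replicate 3 was outside the neg range. The log2 fold change was -0.31 (SE 0.36, adjusted p = 0.547, 95% interval -1.18 to 0.56), and became 0.11 when pos replicate 3 was left out, -0.93 when pos replicate 1 was, and 0.21 after removal of the length trend. Its folding needs the ER chaperone C1GALT1C1 (Cosmc), whose gene had 20.9, 23.4 and 26.5 CPM in neg and 37.7 and 25.6 CPM in pos replicates 1 and 3 (log2 fold change 0.43, SE 0.25, adjusted p = 0.262). The ratio of C1GALT1 to C1GALT1C1 in CPM was 1.82, 1.73 and 1.86 in neg, 1.24 in pos replicate 1 and 0.844 in pos replicate 3, so that both pos libraries were lower. The canonical transcripts are 6275 and 1636 nt long, and with each library's length trend removed the ratio was 1.53, 1.29 and 1.16 in neg and 1.23 and 2.17 in pos, without that separation.

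The pos libraries disagreed in the same direction for every tested member. Pos replicate 1 was above pos replicate 3 for 9 of 9, by 0.17 (GALNT6) to 1.92 (GALNT1) on the log2 scale with a median of 0.71, where the median over all tested genes was 0.02 and the quartiles -0.67 and 0.76. Pos replicate 1 was above the highest neg library for 6 of 9 members and pos replicate 3 below the lowest for 6 of 9. The matching shares over all tested genes were not computed, so these counts are not read as a result about the members. The members' transcripts are longer than most, with a median of 4249 nt against 3240.5 nt for all tested genes. At the length of C1GALT1 the trend of pos replicate 3 stood at -1.02 against neg, and C1GALT1 itself was at -0.98. For GALNT2 these values were -0.59 and -0.51. GALNT1, GALNT7 and GALNT3 were lower in pos replicate 3 than their length trend, at -1.51, -1.25 and -1.58 against -0.44, -0.54 and -0.23. GALNT6 and GALNT10 were higher than theirs, at -0.23 and -0.095 against -0.82 and -0.96. Fits that kept a single pos library called more. Without pos replicate 1 they called 5 of the 9 members lower (GALNT1, GALNT2, GALNT3, GALNT7 and C1GALT1) beside 63.1% of all tested genes, and without pos replicate 3 they called 1 (GALNT11, higher) beside 31.3%. After removal of the length trend these counts were 5 beside 51.6% and 2 beside 35.8%. Such calls assume that the lone pos library varies like neg libraries. The part of transcript length in these differences was not tested beyond the fit that removes it. In that fit 0 of 9 members passed, against 14.0% of all tested genes. Of the members' 9 log2 fold changes 7 were above 0, beside 6972 of 13604 over all tested genes. GALNT10 alone of the members had an unadjusted p under 0.05 in that edgeR fit, beside 4680 of the 13604.

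**Figure D2:**
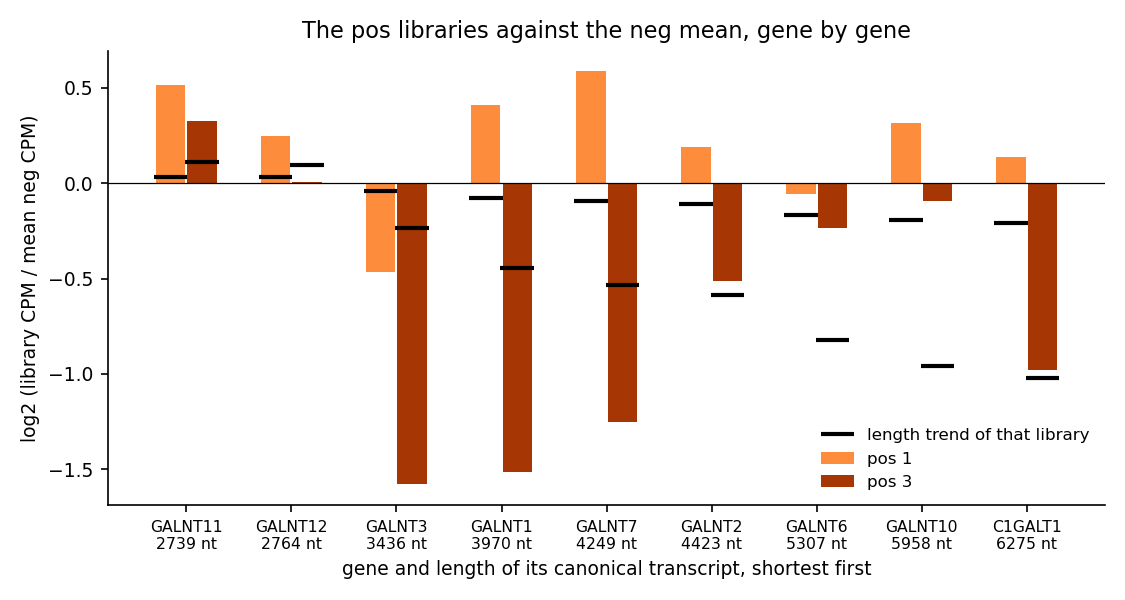
Log2 ratio of each pos library's CPM to the mean neg CPM for the 9 tested genes, ordered by the length of the canonical transcript, with black lines at the ratio that the length trend of that library gives for a transcript of that length. Pos replicate 3 (brown) falls to -1.58 for GALNT3 and -1.51 for GALNT1, while pos replicate 1 (orange) is above 0 for 7 of the 9 genes.

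Sequences before a RefSeq start of GALNT3 and GALNT11 are shown because only in these 2 members both pos libraries lay on the same side of every neg library. For GALNT3 they lay below and for GALNT11 above. They are the 250 bases before the start in RefSeq (GRCh38.p14), written 5′ to 3′ on the gene's strand, chr2:165794248-165794497 on the minus strand for GALNT3 and chr7:152074787-152075036 on the plus strand for GALNT11. Both windows lie inside the GENCODE spans given above, since the RefSeq start is 412 bases into the span of GALNT3 and 49363 bases into that of GALNT11, so other starts of these genes are not covered. Which start these cells used was not measured. Capitals mark GGGCGG, the GC box read by SP1 factors, searched on both strands.
GALNT3: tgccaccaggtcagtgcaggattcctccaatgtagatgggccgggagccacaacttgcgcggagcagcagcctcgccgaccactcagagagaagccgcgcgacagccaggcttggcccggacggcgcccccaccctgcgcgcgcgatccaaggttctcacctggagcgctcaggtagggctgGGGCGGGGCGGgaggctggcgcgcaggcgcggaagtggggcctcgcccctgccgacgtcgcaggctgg
GALNT11: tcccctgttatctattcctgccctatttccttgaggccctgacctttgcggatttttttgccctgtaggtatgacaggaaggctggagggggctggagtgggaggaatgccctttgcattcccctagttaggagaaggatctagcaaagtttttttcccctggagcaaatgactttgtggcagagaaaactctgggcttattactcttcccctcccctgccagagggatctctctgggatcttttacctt
The GALNT3 window held 2 such matches, which overlap each other, with 71.6% G or C and 26 CpG dinucleotides. The GALNT11 window held 0 matches, with 50.0% G or C and 1 CpG. Of all 34788 such windows 42.6% held GGGCGG, and the median window had 58.0% G or C and 11 CpG. GGGCGG also occurred in at least 1 window of GALNT1, GALNT2, GALNT7, GALNT10, GALNT12 and C1GALT1, whose pos and neg libraries overlapped. Of the 10 members 8 had at least 1 RefSeq window, and neither the E-box CACGTG nor TATAAA occurred in any of them (both strands, held by 6.31% and 10.8% of all windows). A match is a feature of the letters only, and no binding was measured here.

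No other GALNT gene was called either. Of 11 further GALNT genes that were measured, 4 had enough reads to be tested, at a median log2 fold change of -0.54. Of these 4, edgeR, DESeq2 and limma-voom called 0, beside 9.20%, 23.2% and 7.93% of all tested genes. An unadjusted edgeR p under 0.05 was found for 1 of the 4, beside 34.6% of all tested genes. With 4 genes these counts cannot be told apart from those shares. GALNT5 had 33.6, 33.8 and 33.8 CPM in neg, a very narrow spread, and 26.1 and 20.7 CPM in pos replicates 1 and 3, both below (log2 fold change -0.53, SE 0.20, adjusted p = 0.130). Its canonical transcript is 10344 nt long, and the value after removal of the length trend was 0.38 (adjusted p = 0.353). GALNT16 had 18.3, 15.3 and 16.3 CPM in neg and 10.0 and 12.9 CPM in pos, again both below (-0.54, SE 0.23, adjusted p = 0.153), at -0.23 with the trend removed. GALNT18 had 18.2 to 26.5 CPM in neg and 22.5 and 27.3 CPM in pos (0.20, SE 0.25), and GALNT9 had 2.17 to 3.29 CPM in neg and 1.21 and 2.32 CPM in pos (-0.69, SE 0.42). GALNT8, GALNT13, GALNT14, GALNT15, WBSCR17 (GALNT17) and GALNTL5 had 0 reads in every library, and GALNTL6 had 2 reads, both in neg replicate 2.

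The make-up of the GALNT mRNA pool does not depend on the scaling between libraries, whereas its total in CPM does. The make-up still carries the length trend of each library. Summed over all 20 GALNT genes the pool held 337, 351 and 353 CPM in neg, 396 CPM in pos replicate 1 and 256 CPM in pos replicate 3. Per kilobase of transcript the 9 GALNT members made up 76.1%, 80.5% and 81.6% of it in neg, 85.1% in pos replicate 1 and 73.9% in pos replicate 3. GALNT11 was the only member with a higher share in both pos libraries than in every neg library, 14.5% and 19.0% compared with 10.9% to 12.3% in neg. GALNT3 was the only one lower in both, at 1.17% and 0.808% against 1.73% to 2.14%. GALNT7 took 14.2% to 19.6% in neg, 21.4% in pos replicate 1 and 8.92% in pos replicate 3, and GALNT2 stayed between 15.7% and 17.9% in all 5 libraries. With the length trend removed, over the 12 tested GALNT genes, GALNT11 held 14.7% in each pos library against 12.5% to 13.4% in neg, and GALNT3 1.18% and 0.749% against 1.75% to 2.20%. GALNT7 still had 21.3% and 9.71% in pos replicates 1 and 3. In these shares GALNT10 was also above neg in both pos libraries (4.17% and 6.41% against 2.93% to 4.10%) and GALNT12 below (5.64% and 5.49% against 5.72% to 6.17%). GALNT18, another short transcript at 2503 nt, went from 16.9% in pos replicate 3 to 12.2% once the trend was removed, inside the neg range. The shares with the trend removed were computed after the data were seen. No test was made on these shares, which move together because they add up to the whole.

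**Figure D3:**
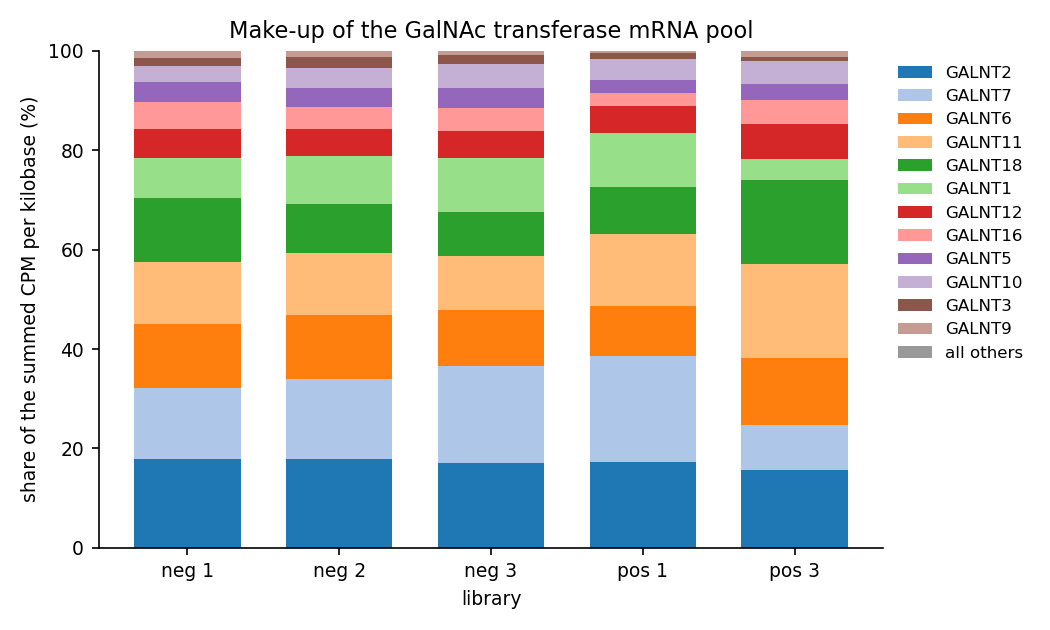
Share of each gene in the summed CPM per kilobase of 20 GALNT genes (vertical axis, percent) in each of the 5 libraries. GALNT2 (lowest segment) keeps 15.7% to 17.9% throughout, while GALNT7 shrinks to 8.92% and GALNT11 and GALNT18 widen in pos replicate 3. GALNT4 and the genes with 0 to 2 reads are drawn together as all others.

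Beside the enzymes that start the chains, GFPT1 and GNE of their sugar supply fell in pos. Of their substrates MUC3A fell, as did MUC1, the shRNA's target. Of 17 tested genes of nucleotide sugar supply 2 fell and 0 rose (against 4.13% of all genes lower and 5.06% higher), with 9 below 0, 8 above 0 and a median log2 fold change of -0.23. DESeq2 called 4 lower and 2 higher, where it called 23.2% of all tested genes. GFPT1, the rate-limiting enzyme of the hexosamine pathway from which UDP-GlcNAc and then UDP-GalNAc are made, had 353, 356 and 399 CPM in neg and 79.5 and 37.4 CPM in pos replicates 1 and 3, far below every neg library. It fell 6.31-fold (log2 fold change -2.66, SE 0.37, edgeR adjusted p = 0.0326), and removal of the length trend gave -1.95 (adjusted p = 0.00433). GNE, the first enzyme of sialic acid synthesis, fell from 6.78 ± 0.663 to 2.80 ± 0.520 CPM (SD, n = 3 and n = 2) with an adjusted p of 0.0463, or 0.171 with the trend removed. Of 9 tested mucin-type substrates MUC1 and MUC3A fell and 0 rose (median -1.07), against 4.13% of all tested genes lower. Since the shRNA targets MUC1, its fall was not taken as a result about substrates. MUC3A had 100, 132 and 114 reads in neg and 16 and 18 in pos (-2.36, SE 0.32, adjusted p = 0.0326, or 0.0926 with the trend removed). As for MUC1, these calls ended when any 1 neg library was left out, since edgeR then called 0 genes at all, with 2510 to 3033 at an unadjusted p under 0.05.

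**Figure D4:**
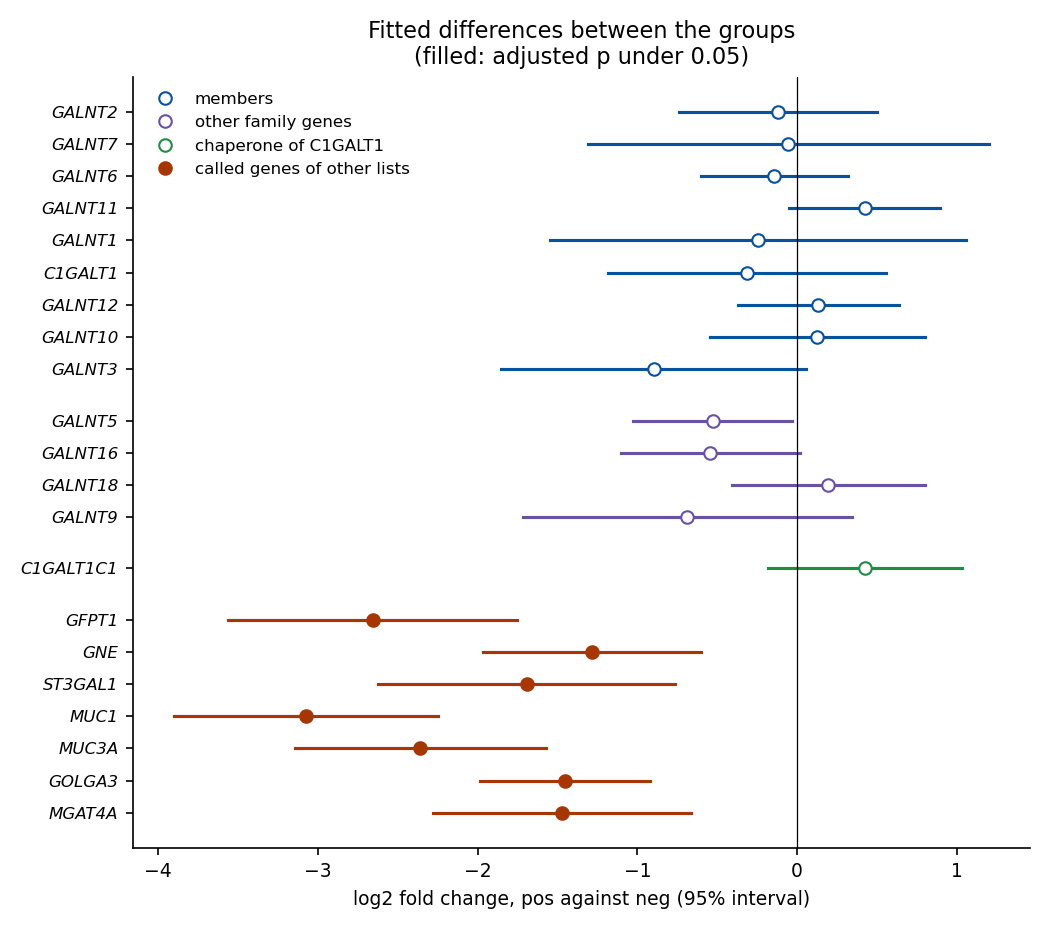
Log2 fold change of pos against neg with its 95% interval for the 9 tested members (blue), 4 other GALNT genes (violet), C1GALT1C1 (green) and 7 genes of the other lists that passed the threshold (brown). Filled points have an adjusted p under 0.05. B3GALT5, with 0 reads in both pos libraries, and XYLT1, with very few reads in pos, are not drawn. The intervals of all 9 members include 0, while GFPT1 and MUC1 stand at -2.66 and -3.07.

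Of 10 tested core extension genes 1 fell and 0 rose, at a median of -0.15. With the capping genes below that made 1 call in each list, a share near the 9.20% called over all tested genes. It was B3GALT5, a galactosyltransferase that extends chains, with 51, 59 and 44 reads in neg and 0 in both pos libraries, which was at least 11.4-fold lower against a floor of 3 reads per library. Of 15 tested capping genes 1 fell and 0 rose, at a median of -0.26. ST3GAL1, which sialylates core 1, had 5.59, 4.78 and 7.56 CPM in neg and 2.27 and 1.37 CPM in pos replicates 1 and 3, below every neg library. Its log2 fold change was -1.69 (SE 0.38, edgeR adjusted p = 0.0487), and -1.09 (adjusted p = 0.0594) with the length trend removed. Without any 1 neg library neither gene was called.

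Enzymes of other glycosylation routes and proteins of the Golgi gave a comparison outside mucin-type chains. The counts below stand beside 4.13% of all tested genes called lower and 5.06% called higher in edgeR. With the length trend removed 14.0% of all tested genes were called in either direction, and in DESeq2 23.2%. Of 13 tested N-glycan processing genes 1 fell and 0 rose (median -0.04), the branching enzyme MGAT4A, from 3.82 ± 0.602 to 1.37 ± 0.00353 CPM (adjusted p = 0.0487, or 0.262 with the trend removed). With the length trend removed the list instead had 0 lower and 1 higher at a median of 0.27. That gene was MGAT5, another branching enzyme, at 0.87 (adjusted p = 0.0141), named after its values were seen. Of 9 tested genes that start other O-linked sugars 1 fell and 0 rose (median -0.14). It was XYLT1, which starts glycosaminoglycan chains, with 60, 71 and 66 reads in neg and 0 and 4 in pos (adjusted p = 0.0386, or 0.0450 with the trend removed). Of 21 tested Golgi matrix and tether genes 1 fell and 0 rose, at a median of -0.63, with 16 of the 21 below 0. Over all tested genes the median was -0.05, with 7074 of 13604 below 0. The golgin GOLGA3 fell from 74.2 ± 8.83 to 27.1 ± 3.57 CPM (adjusted p = 0.0337). Its canonical transcript is 8938 nt long and the value was -0.59 (adjusted p = 0.144) with the length trend removed. In that fit 5 other genes of the list were called lower (GOLGA5, GORASP2, GCC1, COG1 and COG3) and COG4 higher, at a median of -0.54, and DESeq2 called 6 lower and 1 higher. These 6 genes were named after their values were seen. The 3 edgeR calls ended without any 1 neg library, and in bulk libraries fewer cells with a transcript and less of it per cell cannot be told apart.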

How the data were processed

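The authors deposited raw counts by gene symbol for 5 stranded poly(A) libraries. STAR was the aligner per the labels' protocols. CASAVA 1.8.2, STAR 2.5.2b and DESeq2 1.24.0 stand in the submitters' processing notes. These give the build as hg19 and the protocol as GRCh38, so coordinates are those of GENCODE 44 (GRCh38). How reads were counted, and whether by strand, is not given in the sources used here. The table's 92 spike-in rows, all at 0, were left out.

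The main test used edgeR 4.0.16 in R 4.3.3. Genes were kept by filterByExpr (minimum count 10, total 15; 13604 of 25343), scaled by TMM and tested for pos against neg with the quasi-likelihood test, two-sided, with Benjamini-Hochberg adjustment over all tested genes at 0.05. SE is the log2 fold change over the square root of F. Intervals are 95%, and Poisson intervals and floors of 3 counts cover counting error only. The edgeR step was tested on simulated data.

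Alternatives were DESeq2 1.42.0, limma-voom (3.58.1) with and without library quality weights, other scalings, filters and thresholds, a replicate block, each library left out, and removal of each library's lowess trend (span 0.3) of log2 CPM, at a prior count of 2, on canonical transcript length, known for 97.4% of tested genes.

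The 10 members, the gene lists and the length alternative were chosen with earlier results of these data known. The rule named all members, MUC1, C1GALT1C1, GALNT genes with at least 10 reads in a library, and called genes of the other lists. Protein sequences were not used here.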

Additional observations from a re-analysis of the deposited data

How the results depend on the processing

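With 3 neg and 2 pos libraries, the number of genes called depended on the fit. Over all genes it was 1251 in edgeR, 3161 in DESeq2, 341 in limma-voom with library quality weights, 606 with library size as the only scaling, 1902 with the length trend removed, and 1 and 3442 at adjusted p thresholds of 0.01 and 0.1. Leaving out a library gave 0 to 8819. The listed genes other than the members include other glycosylation routes and Golgi proteins, and gave 9 calls, among them MGAT4A, GOLGA3 and XYLT1. The number tested in each list is given above, and 9.20% of all tested genes were called in edgeR and 23.2% in DESeq2. For the listed genes there were 22 calls in DESeq2, 2 with quality weights and 15 with the length trend removed. At 0.01 and 0.1 there were 0 and 23, and 0 to 61 with a library left out. With the trend removed as well and pos replicate 1 or 3 left out, 7220 and 5012 genes and 48 and 41 listed genes passed. A lone pos library is there assumed to vary like neg libraries.

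The members' count of 0 held under every alternative with all 5 libraries and without any neg library. Without pos replicate 1 it was 5 (GALNT1 at -1.47, GALNT2 at -0.47, GALNT3 at -1.53, GALNT7 at -1.20 and C1GALT1 at -0.93), and without pos replicate 3 it was 1 (GALNT11, higher). With the length trend removed it was 5 without pos replicate 1 (GALNT1, GALNT3 and GALNT7 lower, GALNT6 and GALNT10 higher) and 2 without pos replicate 3 (GALNT7 and GALNT11, higher). MUC1 was at -3.09 (adjusted p = 0.0786) with quality weights, and from -3.42 to -2.82 with a library left out.

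Signs turned as follows, and the cause was not tested. With library size only, GALNT10 was at -0.22, GALNT12 at -0.23 and GALNT18 at -0.20. GALNT10 was at -0.032 without neg replicate 1 and -0.047 without pos replicate 1, and GALNT7 at 0.084 without neg replicate 3. Without pos replicate 3 GALNT1 was at 0.38, GALNT2 at 0.16, GALNT7 at 0.56 and C1GALT1 at 0.11. With the length trend removed GALNT2 was at 0.19, GALNT6 at 0.36, GALNT7 at 0.16, C1GALT1 at 0.21, C1GALT1C1 at -0.018 and GALNT5 at 0.38. With the trend removed and without pos replicate 1, GALNT2 was at 0.087, GALNT6 at 0.59, GALNT12 at -0.065, C1GALT1 at 0.059, C1GALT1C1 at -0.66, GALNT5 at 0.76 and GALNT16 at 0.13. With the trend removed and without pos replicate 3, GALNT1 was at 0.48, GALNT2 at 0.29, GALNT6 at 0.094, GALNT7 at 0.68, C1GALT1 at 0.35 and GALNT18 at -0.019. GALNT3 and GALNT11 kept their sign in all 18 fits.

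Replicate numbers 1 and 3 occur in both groups. Same-numbered libraries deviated from their group means in opposite directions (correlations of -0.443 and -0.448 across genes). The deviations of pos replicates 1 and 3 are exact mirror images. For neg replicate 1 the correlation was -0.443 with pos replicate 1 and 0.443 with pos replicate 3. These correlations therefore share 1 pos contrast and cannot decide whether the numbers are pairs. The main test did not take them as pairs. With the replicate block 87 genes and 4 listed genes passed, and 0 members. With the block and the length trend removed 415 genes and 5 listed genes passed, with GALNT2 at 0.21, GALNT6 at 0.39, C1GALT1 at 0.18, C1GALT1C1 at -0.11 and GALNT5 at 0.36.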
